A study of Homo sapiens with 12 samples.

Results

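The transcripts examined here encode the initiation factor eIF2, its exchange factor eIF2B and the proteins of the integrated stress response, 10 genes chosen by name: EIF2S1, EIF2S2, EIF2B4, EIF2B5, EIF2AK1, EIF2AK3, EIF2AK4, ATF4, DDIT3 and PPP1R15B. All 10 had at least 1 peak among the 10830 gene names in 6 lists of RNA immunoprecipitation and sequencing (RIP-seq) peaks. RIP-seq recovers the RNA that travels with a protein and calls as peaks the transcript stretches enriched over the input RNA. The RNA came from HepG2, an established line of human liver cancer cells, from which stable lines carrying Flag-tagged METTL16, eIF3a or eIF3b were made by viral infection. Per the study's methods, ultraviolet light was used to cross-link RNA to protein ahead of lysis. Each protein had 2 RIP samples, described in the study as biological replicates, and 6 input samples completed the 12 samples. Per the labels, METTL16 and eIF3b were pulled down with a Flag antibody and eIF3a with an antibody against eIF3a itself, whereas the names of all 6 deposited lists say flag. Antibody and protein can therefore not be told apart in a comparison with eIF3a. All lines overexpressed a tagged protein, and no list from a control antibody or an unmodified line was used here.

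eIF2 carries the initiator methionyl-tRNA to the small ribosomal subunit, and eIF2B recharges it with GTP after each round. In the integrated stress response, a set of kinases phosphorylates the alpha subunit of eIF2, which blocks eIF2B and lowers initiation on most mRNAs. A few mRNAs, ATF4 the best known, are translated better under that condition because short upstream open reading frames in their 5′ leaders hold ribosomes back from the main start codon in unstressed cells. METTL16 is an RNA methyltransferase, and eIF3a and eIF3b are subunits of initiation factor eIF3, which binds the small ribosomal subunit.

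The 6 lists held 12921 to 21733 peaks and 5226 to 8166 gene names each. Their median peak width was 180 to 210 bases and their median fold enrichment over input 2.73 to 3.40. Read counts were not used here, so the depth behind each peak is unknown, and a gene without a peak in a list was not called as enriched, which is not evidence that it was unbound. eIF3a replicate 2 was the shortest list. The mean GC content per list was lowest in eIF3a (53.7% and 53.1%), intermediate in eIF3b (58.1% and 54.1%) and highest in METTL16 (59.0% and 60.8%). Of 8 hepatocyte markers 7 had a peak, and TTR had none. HNF4A and SERPINA1 had one in all 6 lists, APOA1 and APOB in 5, FGB in 3, AFP in 2 and ALB in 1. The AFP and ALB peaks were in METTL16 lists only. Of 6 markers of other cell types 2 had a peak, PECAM1 in 4 lists and PTPRC in 1, and the part of these in the results was not tested.

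The 10 genes carried 73 peaks in all, 43 within a single exon block and 30 joined across exons. Their widths ran from 61 to 989 bases with a median of 180. Of these peaks 32 lay in coding sequence alone, 18 in the 3′ untranslated region (UTR) alone, 10 across coding sequence and 3′ UTR, and 9 across 5′ UTR and coding sequence. A single peak lay wholly in a 5′ UTR, on EIF2AK3, and 3 lay off the canonical transcript, all on ATF4. Positions refer to the canonical transcript of GENCODE, which is the MANE Select transcript for each of the 10 genes, and are counted from its first base.

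To ask which of these transcripts each protein bound, a gene was counted as bound where it had a peak in both replicates. eIF3b bound 9 of the 10 genes, all but EIF2S2. METTL16 bound 5 (EIF2B4, EIF2B5, EIF2AK1, EIF2AK4 and ATF4), and eIF3a bound 4 (EIF2B5, EIF2AK1, EIF2AK4 and ATF4). Over the 10760 annotated genes with a peak in any list, 60.1% were bound by eIF3b, 42.6% by METTL16 and 42.5% by eIF3a. The METTL16 and eIF3a counts were thus near the share of all genes, and the eIF3b count was above it, with no test over so few chosen genes. The 4 genes EIF2B5, EIF2AK1, EIF2AK4 and ATF4 had a peak in all 6 lists, which held for 25.3% of all genes. By list, 6 genes had a peak in each METTL16 replicate, beside 53.9% and 58.6% of all genes in replicates 1 and 2. In eIF3a, 7 had a peak in replicate 1 and 5 in replicate 2, beside 75.5% and 48.3% of all genes. In eIF3b, 9 had a peak in replicate 1 and all 10 in replicate 2, beside 74.6% and 70% of all genes. The eIF3a count rested on its shorter list, since replicate 1 alone gave 7 genes.

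**Figure D1:**
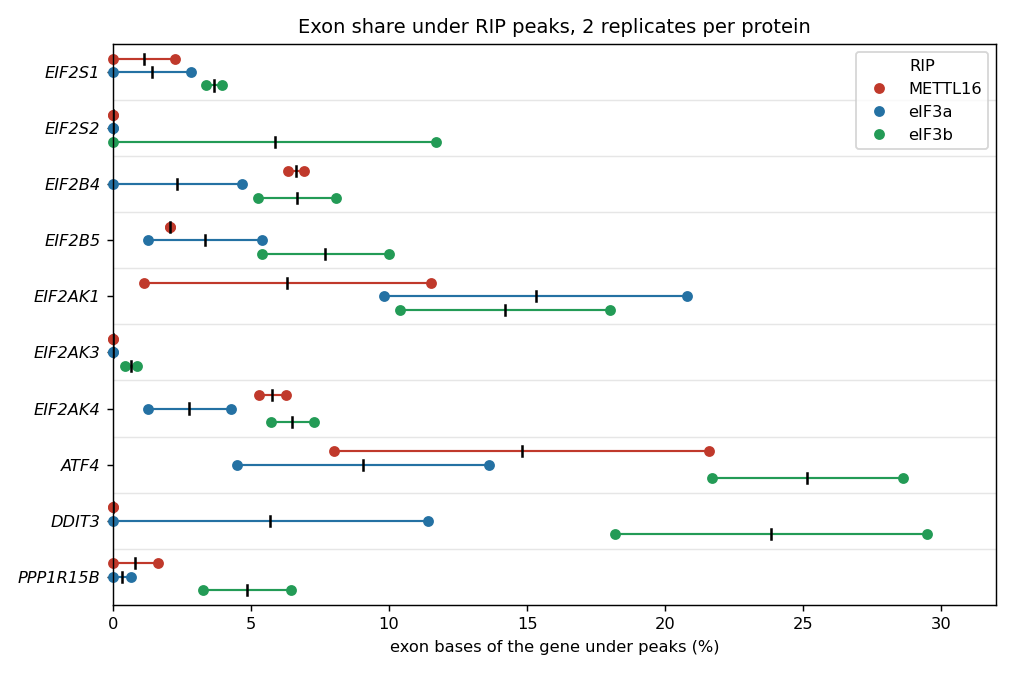
Exon share under peaks (%, horizontal axis) of each gene in the 2 RIP replicates of METTL16 (red), eIF3a (blue) and eIF3b (green). Points are replicates, lines join them and black ticks are their means. DDIT3 had 18.2% and 29.5% in eIF3b and 0 in both METTL16 replicates, whereas the METTL16 and eIF3b points of EIF2B4, EIF2AK1 and EIF2AK4 overlapped.

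ATF4, the transcription factor that drives the stress programme, lies at chr22:39519695-39522683 on the plus strand of GRCh38. Its canonical mRNA of 1419 bases has a 5′ UTR of 282 bases that holds 3 ATGs upstream of the start codon. The first is followed at once by a stop codon, the second opens a frame of 3 codons, and the third opens a frame of 59 codons that runs past the main start codon in another phase, to base 365. The windows below show these ATGs and the start codon, in capitals, because they are the sites at which scanning ribosomes choose between the upstream frames and ATF4. The first, second and start-codon windows lie at chr22:39520574-39520603, chr22:39520636-39520665 and chr22:39521434-39521463. The window of the third joins the ends of 2 exons.
ATF4 upstream ATG 1: gcccgcccacagATGtagttttctctgcgc
ATF4 upstream ATG 2: tccacggccaccATGgcgtattaggggcag
ATF4 upstream ATG 3: gcggcttaagccATGgcgcttctcacggca
ATF4 start codon: aagcaccgcaacATGaccgaaatgagcttc

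No peak in any of the 6 lists covered a base of these 3 upstream frames or of the ATF4 start codon. On the canonical mRNA the peaks fell into 2 clusters. The first, in the first part of the coding sequence, covered bases 409 to 647 in METTL16 replicate 1, 439 to 647 in METTL16 replicate 2 and 439 to 618 in eIF3b replicate 1. Neither eIF3a list nor eIF3b replicate 2 had a peak there. The second, at the 3′ end, covered bases 1094 to 1419 in METTL16 replicate 1, 1064 to 1419 and 1303 to 1419 in the eIF3a replicates, and 1064 to 1392 and 1035 to 1419 in the eIF3b replicates. METTL16 replicate 2 was the list without it. The stop codon of ATF4 was thus under a peak in 5 lists, and 90 bases, 1303 to 1392, were common to those 5. The coding bases at chr22:39522358-39522602 (plus strand), shown because they lay wholly under a peak in METTL16 replicate 1, eIF3a replicate 1 and both eIF3b lists, run to the stop codon in capitals and encode the end of the protein, which holds the leucine zipper of this factor.
ATF4 coding stretch: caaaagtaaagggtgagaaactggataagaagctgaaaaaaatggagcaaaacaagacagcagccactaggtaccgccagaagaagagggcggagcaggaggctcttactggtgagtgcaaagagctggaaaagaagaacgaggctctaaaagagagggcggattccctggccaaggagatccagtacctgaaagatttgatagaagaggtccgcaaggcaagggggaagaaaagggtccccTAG

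The ATF4 peaks on the canonical mRNA were low in fold enrichment, though most ranked high by p-value. Their fold enrichment was 1.89 and 1.82 in METTL16 replicate 1, 1.59 in METTL16 replicate 2, 1.75 and 1.22 in the eIF3a replicates, 1.64 and 1.79 in eIF3b replicate 1 and 2.28 in eIF3b replicate 2. All these values were under the median of their lists. The log10 p-values deposited for the strongest ATF4 peak were -57.8 and -26.6 in METTL16, -91.1 and -6.43 in eIF3a, and -129 and -221 in eIF3b. By its best p-value ATF4 ranked 62 of 7532 genes in eIF3b replicate 2, 406 of 8023 in eIF3b replicate 1 and 197 of 8123 in eIF3a replicate 1, but 3295 of 5198 in eIF3a replicate 2. Its ranks in METTL16 were 467 of 5800 and 1266 of 6300. Both eIF3b lists had in addition peaks within the first intron of the canonical transcript, which is 5′ UTR in a few longer ATF4 transcripts. That of replicate 1, at chr22:39521006-39521244, had a fold enrichment of 7.55 but a deposited log10 p-value of only -3.77. Those of replicate 2, at chr22:39520946-39521066 and chr22:39521244-39521304, had 6.61 and 2.62, with log10 p-values of -4.05 and -2.61. They lay in the 5′ UTR of 1, 1 and 2 of the 11 coding transcripts annotated for ATF4, respectively, and the other lists had none there. The gene has 4 named pseudogenes, and whether reads were shared with them is not stated.

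The share of all exon bases of ATF4 under peaks was 21.6% and 8.0% in METTL16, 13.6% and 4.48% in eIF3a, and 28.6% and 21.7% in eIF3b. Both eIF3b values were above all 4 others. The eIF3b margin over METTL16 rested on the peaks off the canonical transcript: on the canonical mRNA alone the shares were 39.8% and 14.7% in METTL16 and 35.9% and 27.1% in eIF3b, which overlap. Against eIF3a, at 25.1% and 8.25% of the canonical mRNA, eIF3b remained separate.

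DDIT3 encodes CHOP, a transcription factor induced late in the stress response, and lies at chr12:57516588-57521737 on the minus strand. Its 5′ UTR of 177 bases holds 3 upstream ATGs, of which the first and second open overlapping frames of 34 and 31 codons with a common end, and the third a frame of 73 codons that overlaps the main start codon. The windows of the first and second, at chr12:57520463-57520492 and chr12:57520454-57520483, are shown with the start codon window, at chr12:57517389-57517418, because peaks on DDIT3 began beyond all of them.
DDIT3 upstream ATG 1: actgagcgtatcATGttaaagatgagcggg
DDIT3 upstream ATG 2: atcatgttaaagATGagcgggtggcagcga
DDIT3 start codon: ccaactgcagagATGgcagctgagtcattg

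DDIT3 had no peak in METTL16 or in eIF3a replicate 2, and a single coding peak in each of the other 3 lists. The peaks covered bases 286 to 434 in eIF3a replicate 1, 286 to 671 in eIF3b replicate 1 and 286 to 523 in eIF3b replicate 2, with fold enrichments of 2.11, 2.41 and 2.29. All began at the same base and reached different distances toward the stop codon at the end of the coding sequence. No upstream ATG and no start codon was covered. The only upstream-frame bases under a peak were 82 bases of the third frame that also belong to the coding sequence. The coding stretch at chr12:57517062-57517180 (minus strand), shown because it lay wholly under the peak of all 3 lists, reads as follows, and no letter is marked.
DDIT3 coding stretch: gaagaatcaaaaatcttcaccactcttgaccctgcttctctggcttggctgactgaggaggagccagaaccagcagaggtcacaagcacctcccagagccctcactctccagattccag

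The exon share of DDIT3 was 0 in both METTL16 lists, 11.4% and 0 in eIF3a, and 29.5% and 18.2% in eIF3b. The eIF3b replicates stood above all other lists. MARS1, on the opposite strand, shared 16 of the 386 bases under DDIT3 peaks, and the use of strand in counting is not stated.

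PPP1R15B, at chr1:204396492-204411887 on the minus strand, encodes CReP, the constitutive partner of the phosphatase that removes the stress mark from eIF2. It has the longest 5′ UTR of the 10 genes, 406 bases, with 2 upstream ATGs that open frames of 8 and 51 codons. The windows lie at chr1:204411673-204411702, chr1:204411625-204411654 and, for the start codon, chr1:204411394-204411423, and are shown because eIF3b peaks reached the second frame and the start codon.
PPP1R15B upstream ATG 1: ggactcctatccATGgtgttgaagcgtcga
PPP1R15B upstream ATG 2: ttccccgccaggATGgaagtcgcatcagtc
PPP1R15B start codon: aagaaaaaggagATGgagccggggacaggc

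In eIF3b replicate 1 a peak of 390 bases, from 211 to 600, covered the start codon and 121 bases of the second upstream frame, but not its ATG. In eIF3b replicate 2 the peak there had 61 bases, 361 to 421, and covered the start codon but neither upstream frame. The fold enrichments were 2.07 and 1.51. Both eIF3b lists also had a peak at the end of the coding sequence, bases 2309 to 2519 and 2249 to 2489, at 1.70-fold and 2.10-fold. METTL16 replicate 2 had a coding peak elsewhere (720 to 870, 2.24-fold) and eIF3a replicate 2 a 3′ UTR peak (3598 to 3658, 2.20-fold), each absent from the partner replicate. The peaks of METTL16 and eIF3a shared no base with those of eIF3b, so the gene name recurred across proteins at different places. Its exon share was 0 and 1.62% in METTL16, 0 and 0.653% in eIF3a, and 6.44% and 3.24% in eIF3b, with both eIF3b values above the others. Of the 873 bases under PPP1R15B peaks, 243 are shared with an unnamed long non-coding RNA on the opposite strand, all in the eIF3b lists.

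**Figure D2:**
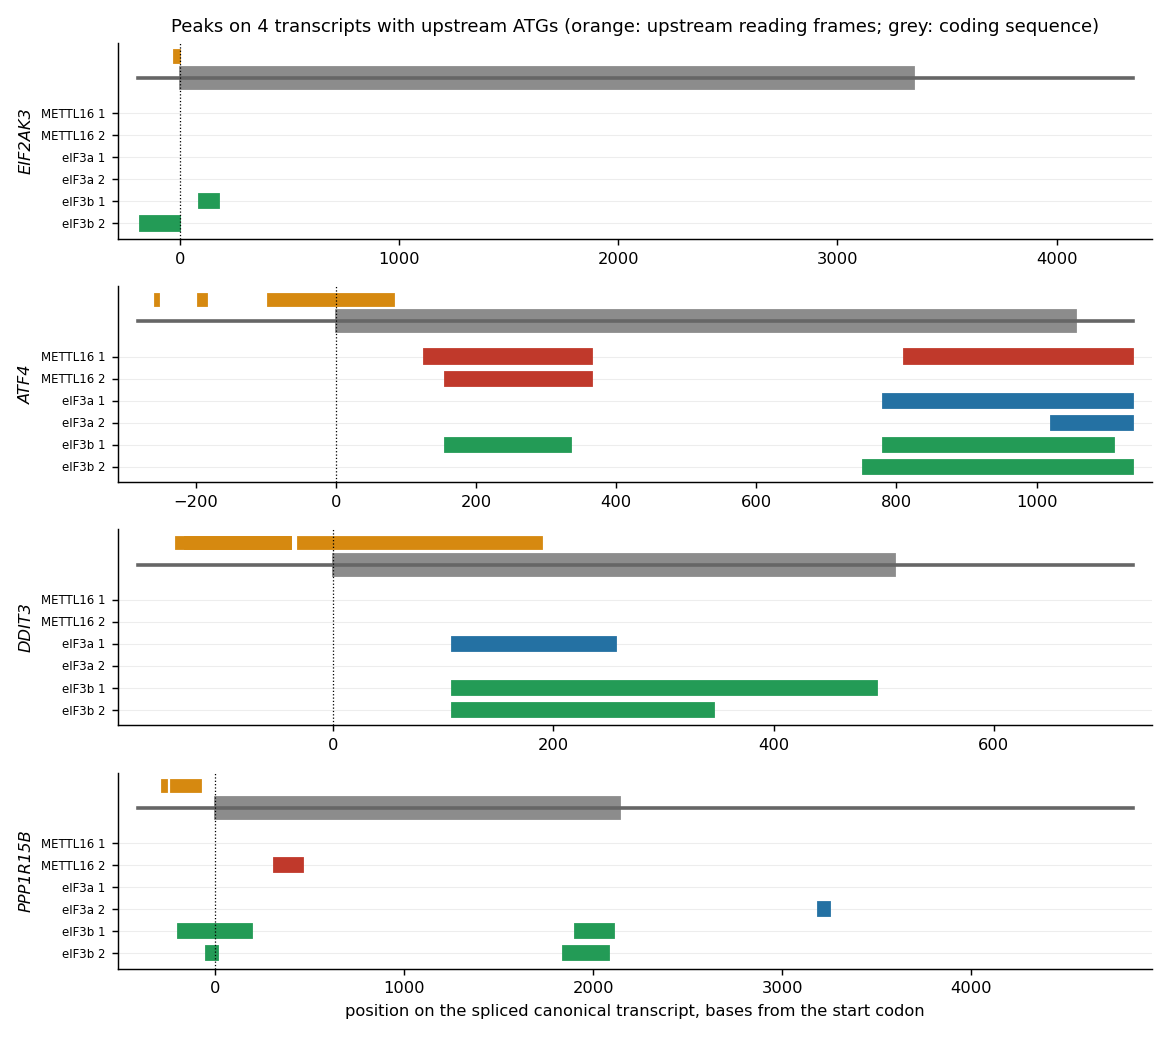
Peaks on the spliced canonical transcripts of EIF2AK3, ATF4, DDIT3 and PPP1R15B, with position in bases from the start codon (dotted line) on the horizontal axis and 1 row per list. Grey boxes are coding sequence and orange boxes upstream reading frames from each upstream ATG, where overlapping frames of DDIT3 merge. The upstream frames of ATF4 were free of peaks in all 6 lists, and the 3 eIF3b peaks in its first intron are not drawn.

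The kinases that phosphorylate eIF2 differed among themselves. EIF2AK3 (chr2:88556741-88691518, minus strand) encodes PERK, the kinase of the endoplasmic reticulum. It had a peak in the eIF3b lists only, and the 2 peaks shared no base. The peak of replicate 1 lay in the coding sequence (bases 279 to 369, 4.58-fold) and that of replicate 2 in the 5′ UTR (bases 9 to 189, 11-fold), where it covered the single upstream ATG of the transcript and left a single base before the start codon uncovered. The deposited log10 p-values were -4.98 in replicate 1 and -4.18 in replicate 2. By best p-value EIF2AK3 ranked 6120 of 8023 and 5657 of 7532 genes in these lists. EIF2AK3 counts as bound by eIF3b, but the replicates did not place the binding at the same site. Its exon share was 0.440% and 0.875%, of an exon union of 20691 bases that is much longer than the canonical mRNA of 4536.

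EIF2AK1 (chr7:6022247-6059175, minus strand), which encodes the heme-regulated kinase HRI, had 1 dominant site in its 3′ UTR. A block of 540 bases, 2225 to 2764 of the mRNA, lay under a peak in 5 of 6 lists. The fold enrichment of the peak that covered it was 6.74 in METTL16 replicate 1, 5.68 and 2.82 in eIF3a, and 3.44 and 6.30 in eIF3b. METTL16 replicate 2 was the exception, with only a coding peak of 61 bases (1597 to 1657, 1.48-fold), so the Jaccard index of the peak bases of the METTL16 replicates (shared over combined bases) was 0, against 0.474 in eIF3a and 0.576 in eIF3b. In eIF3a replicate 1 and eIF3b replicate 2 the peak was 989 bases wide, the widest of all 73, and took in the stop codon. The exon share was 11.5% and 1.11% in METTL16, 20.8% and 9.83% in eIF3a, and 10.4% and 18.0% in eIF3b, and all groups overlapped. AIMP2, on the opposite strand, shares 31 of the 1231 bases under EIF2AK1 peaks.

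EIF2AK4 (chr15:39934115-40035591, plus strand) encodes GCN2, the kinase that senses uncharged tRNA. It had the most peaks of the 10 genes, spread over the 5538-base mRNA. At the 5′ end, METTL16 had a peak over the start codon in both replicates, at bases 40 to 189 (4.45-fold) and 10 to 189 (12.4-fold), the highest fold enrichment among the 73 peaks. eIF3a replicate 1 had a peak there too, at bases 40 to 160 and 6.82-fold, whereas eIF3a replicate 2 and both eIF3b lists had none. EIF2AK4 has no upstream ATG. The first 79 coding bases, at chr15:39934196-39934274 (plus strand), are shown because they lay wholly under the peak of these 3 lists, with the start codon in capitals.
EIF2AK4 coding stretch: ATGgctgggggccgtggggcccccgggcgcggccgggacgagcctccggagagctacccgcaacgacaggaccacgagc

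At the other end, a 3′ UTR peak that began at base 5274 or 5304 was present in every list but eIF3a replicate 2. Its fold enrichment was 7.48 and 7.39 in METTL16, 2.79 in eIF3a replicate 1, and 4.31 and 6.36 in eIF3b. A weaker coding peak that began at base 4466 or 4496, at 1.45-fold to 1.90-fold, was present in every list but METTL16 replicate 2. It covered a match to ACAGAGA, the core of the sequence that METTL16 methylates in U6 RNA, at bases 4498 to 4504. This motif, searched on the transcript strand only, had 6 matches in 3 of the 10 canonical transcripts (EIF2AK1, EIF2AK4 and PPP1R15B), beside 37.1% of all 10725 canonical coding transcripts of genes with a peak. A second match lay under a peak, at bases 2478 to 2484 of PPP1R15B in both eIF3b lists. METTL16 replicate 1 was the only METTL16 list with a peak over any of the 6 matches. Further coding peaks lay around bases 459 to 638 in 4 lists, METTL16 replicate 1, eIF3a replicate 1 and both eIF3b replicates, at 1.70-fold, 1.95-fold, 2.27-fold and 1.93-fold. A coding site that began at base 1027 was present in both eIF3b lists only (1.51-fold and 1.76-fold). A site that ended at base 2313 was present in METTL16 replicate 2 (3.62-fold) and eIF3b replicate 1 (2.63-fold). EIF2AK4 thus recurred within its coding sequence as well as at its ends. The exon share of EIF2AK4 was 5.27% and 6.26% in METTL16, 4.27% and 1.26% in eIF3a, and 7.27% and 5.72% in eIF3b. METTL16 and eIF3b overlapped, and both stood above eIF3a.

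The alpha and beta subunits of eIF2 had at most 1 peak per list. EIF2S1 (chr14:67360328-67386516, plus strand), which encodes the phosphorylated alpha subunit, had the same 3′ UTR peak in 4 lists. It spanned bases 3016 to 3135 in METTL16 replicate 1, 2986 to 3135 in eIF3a replicate 1, and 2956 to 3165 and 2956 to 3135 in the eIF3b replicates, so that 120 bases were common. Its fold enrichment was 3.83, 3.31, 4.96 and 3.80 in that order, and METTL16 replicate 2 and eIF3a replicate 2 had no EIF2S1 peak. The exon share was 2.26% and 0 in METTL16, 2.82% and 0 in eIF3a, and 3.95% and 3.38% in eIF3b, the last above the others. Its 5′ UTR and coding sequence had no peak in any list.

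EIF2S2 (chr20:34088309-34112243, minus strand), which encodes the beta subunit, had a peak in eIF3b replicate 2 only. It joined 3 exon blocks over bases 36 to 333, with 98 bases of 5′ UTR and 200 coding bases, and covered the start codon and 117 bases of a frame from the single upstream ATG. Its fold enrichment of 1.33 lay at percentile 0.863 of the genes of that list. It was seen in a single list, and the gene has 7 named pseudogenes.

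The eIF2B subunits differed in where their peaks lay. On EIF2B4 (chr2:27364352-27370338, minus strand), which encodes the delta subunit, all but 1 of the peaks lay in the first 449 bases of the 1644-base mRNA. The exception was a coding peak of METTL16 replicate 2 at bases 1286 to 1405 (1.77-fold). The others covered bases 1 to 330 in METTL16 replicate 1 (7.06-fold), 211 to 449 in METTL16 replicate 2 (2.47-fold) and 121 to 181 and 240 to 420 in eIF3a replicate 1 (1.42-fold and 1.44-fold). In eIF3b they covered bases 1 to 420 in replicate 1 (6.41-fold) and 1 to 181 in replicate 2 (3.50-fold), with a second peak from 240 to 330 (1.41-fold). Coding bases 240 to 330, at chr2:27369118-27369208 (minus strand), lay under a peak in these 5 lists and are shown for that reason, with no letter marked. The start codon was covered in METTL16 replicate 1 and both eIF3b lists, where the peak also ran 59, 59 and 29 bases beyond the annotated transcript start.
EIF2B4 start codon (chr2:27370297-27370326): ggactgagggcgATGgctgctgtggccgtg
EIF2B4 coding stretch: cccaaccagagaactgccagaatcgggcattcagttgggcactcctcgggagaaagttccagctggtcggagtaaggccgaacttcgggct

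The exon share of EIF2B4 was 6.35% and 6.91% in METTL16, 4.66% and 0 in eIF3a, and 8.09% and 5.24% in eIF3b. METTL16 and eIF3b thus overlapped, and eIF3a lay below both. EIF2B5 (chr3:184135038-184146127, plus strand), which encodes the catalytic epsilon subunit, was covered at its 3′ end in all 6 lists. The 3′ end peaks spanned bases 2204 to 2353 and 2353 to 2502 in METTL16, 2204 to 2502 and 2174 to 2263 in eIF3a, and 2114 to 2383 and 2144 to 2383 in eIF3b. The METTL16 replicates met in 1 base (Jaccard index 0.00334), whereas the eIF3b replicates had an index of 0.542 over all their EIF2B5 peaks. The stop codon was covered in eIF3a replicate 2 and both eIF3b lists. A second, coding peak that ended at base 1636 or 1666 was present in eIF3a replicate 1 and both eIF3b lists, and in no METTL16 list. The exon share was 2.08% in each METTL16 replicate, 5.40% and 1.25% in eIF3a, and 9.98% and 5.41% in eIF3b. The eIF3b values were above those of METTL16, and only just above the higher eIF3a value.

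**Figure D3:**
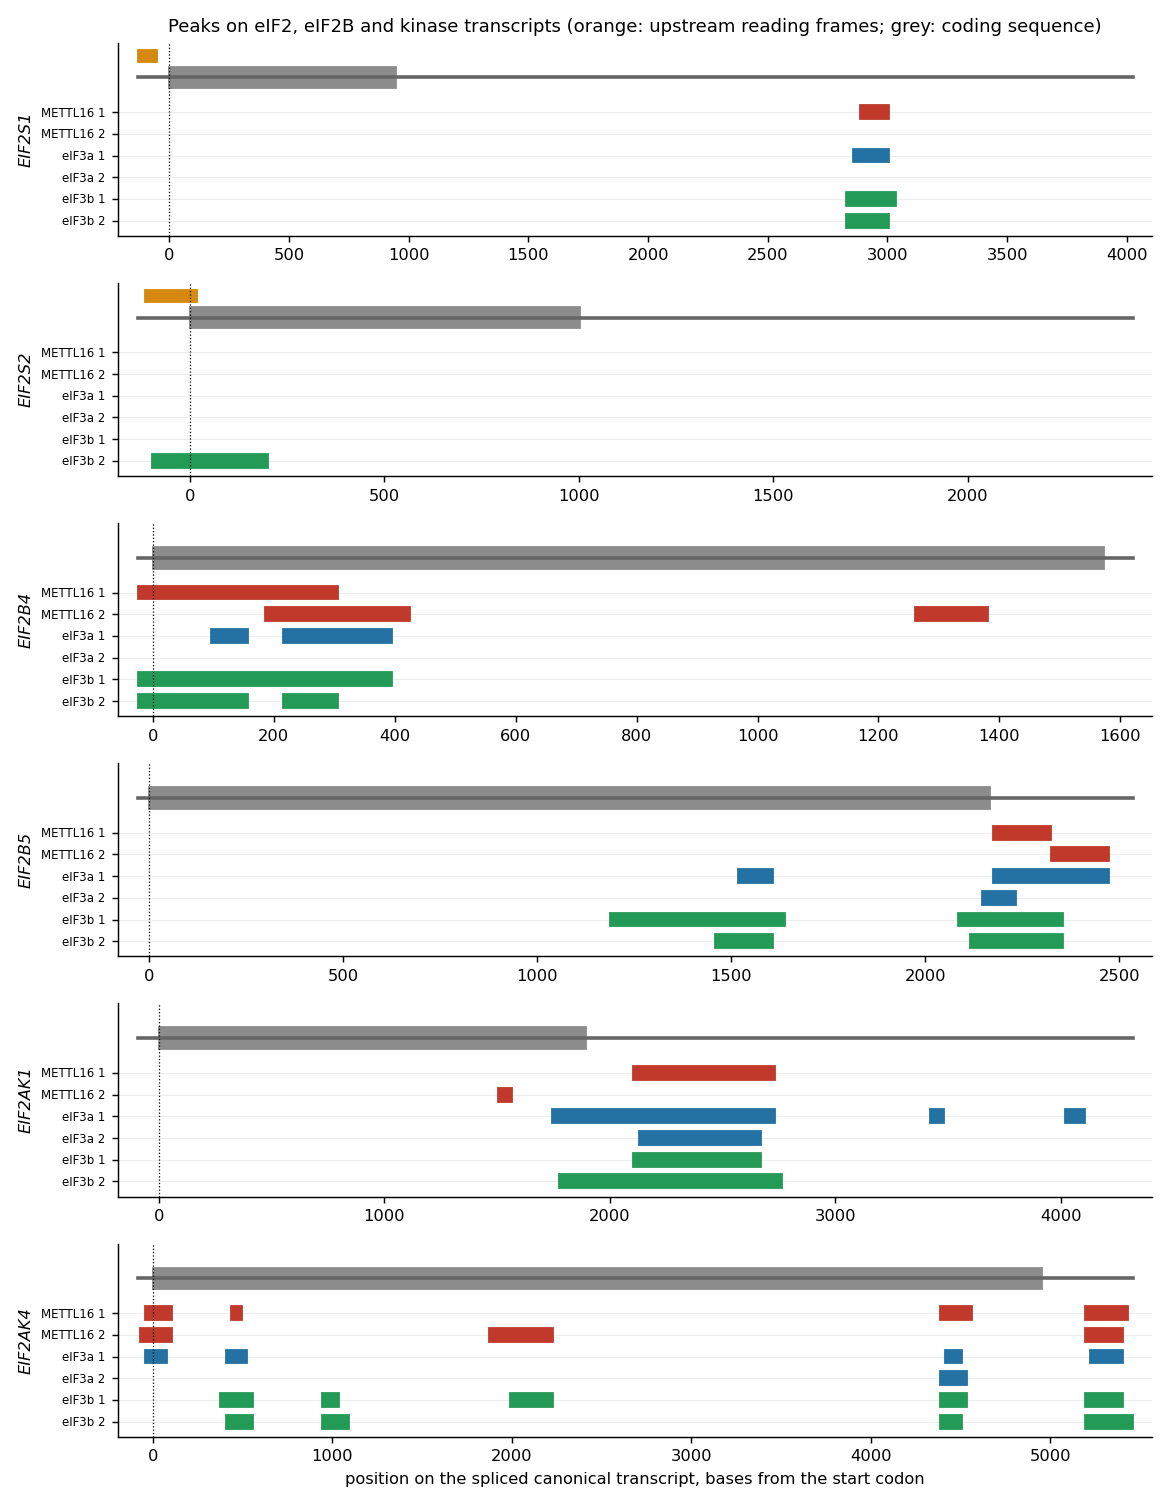
Peaks on the spliced canonical transcripts of EIF2S1, EIF2S2, EIF2B4, EIF2B5, EIF2AK1 and EIF2AK4, with position in bases from the start codon (dotted line) on the horizontal axis and 1 row per list. Grey boxes are coding sequence and orange boxes upstream reading frames. EIF2S1 and EIF2AK1 recurred in the 3′ UTR, EIF2B4 mostly toward the 5′ end, and EIF2AK4 at both ends and at coding sites between them.

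To ask whether 5′ leaders were a shared site, the genes with a peak base on the 5′ UTR in both replicates were counted. METTL16 had 1, EIF2AK4, of its 5 bound genes, beside 19.9% of all its bound genes. eIF3a had 0 of 4, beside 10.3%. eIF3b had 2 of 9, EIF2B4 and PPP1R15B, beside 22.8%. EIF2AK3 and EIF2S2 joined these in eIF3b replicate 2 alone. All these counts lay within 1 gene of what the shares of all bound genes give. An upstream ATG was present in 6 of the 10 genes, 11 in all, beside 40.8% of the 10709 genes with a peak and an annotated 5′ UTR. Of the 11 upstream ATGs, 1 lay under a peak, that of EIF2AK3 in eIF3b replicate 2.

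By region, the peak bases of the 10 genes leaned to the 3′ UTR in eIF3a. The 3′ UTR share was 67.9% ± 14.3 (SD, n = 2) in eIF3a, 35.2% ± 19.5 in METTL16 and 32.3% ± 8.41 in eIF3b. Over all genes it was 34.4% ± 1.08, 26.4% ± 5.92 and 29.6% ± 3.92. The coding share was 31.1% ± 13.5 in eIF3a, 60.0% ± 20.1 in METTL16 and 55.3% ± 10.3 in eIF3b, beside 61.2% ± 2.11, 66.2% ± 5.92 and 63.0% ± 2.37 over all genes. The eIF3a values rested on few bases, 2941 and 962 in replicates 1 and 2, of which EIF2AK1 gave 1140 and 540. Of these EIF2AK1 bases, 990 and 540 lay in the 3′ UTR, so the lean rested in large part on this gene. The 5′ UTR share was 3.47% ± 1.16 in METTL16, 0.714% ± 1.01 in eIF3a and 6.57% ± 2.63 in eIF3b, beside 5.94% ± 0.0034, 3.02% ± 0.797 and 5.60% ± 1.2 over all genes.

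**Figure D4:**
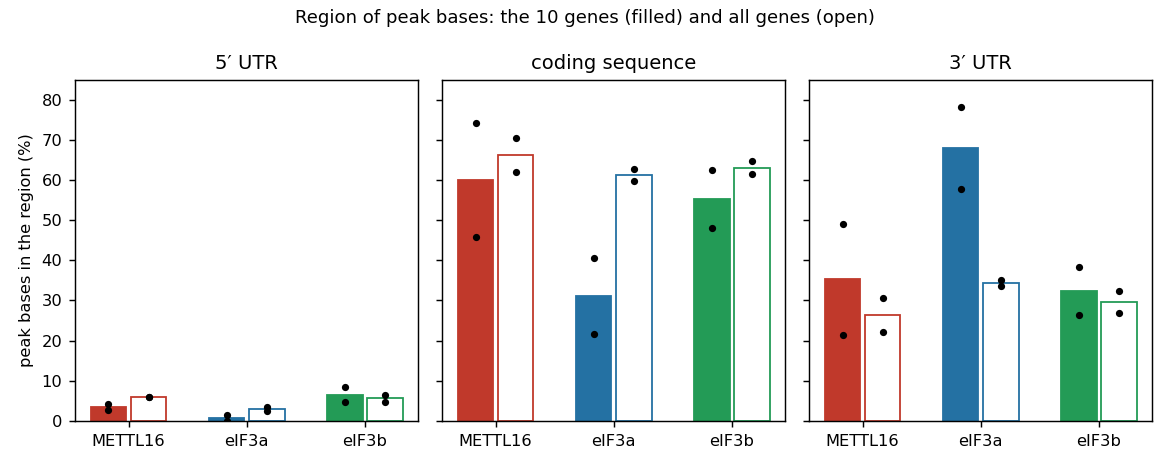
Share of peak bases (%, vertical axis) in the 5′ UTR, coding sequence and 3′ UTR for each RIP, with filled bars for the 10 genes and open bars for all genes. Bars are means of 2 replicates and points are the replicates. The 2 eIF3a points of the 10 genes sit at 57.8% and 78.1% in the 3′ UTR, above the all-gene points at 35.1% and 33.6%.

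To compare the proteins, the exon shares of the 2 replicates of 1 protein were set against those of another, and a gene was counted where they did not overlap. METTL16 was above eIF3a in 2 genes, EIF2B4 (6.63% ± 0.395 against 2.33% ± 3.30, SD, n = 2) and EIF2AK4 (5.76% ± 0.696 against 2.77% ± 2.13), and below it in 0. Over all genes 12.8% were above and 21.8% below. METTL16 was below eIF3b in 6 genes, EIF2S1, EIF2B5, EIF2AK3, ATF4, DDIT3 and PPP1R15B, and above it in 0, beside 35.8% and 4.93% of all genes, with ATF4 no longer among them on the canonical mRNA alone. eIF3a was below eIF3b in 8 genes, all but EIF2S2 and EIF2AK1, and above it in 0, beside 21.5% and 6.12% of all genes. The largest gap was that of DDIT3, at 23.9% ± 8.01 in eIF3b, 5.70% ± 8.06 in eIF3a and 0 in METTL16. None of these differences can pass the exact two-sided permutation test used here, which cannot give a p under 0.333 with 2 replicates against 2, and the Benjamini-Hochberg adjusted value over all genes was 0.963, 0.818 and 1 for the separated genes of the 3 comparisons in the order given. The comparisons share lists, so the eIF3b direction in both is not independent. The 4 genes that METTL16 and eIF3b did not separate were EIF2S2, EIF2B4, EIF2AK1 and EIF2AK4.

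Fold enrichment separated the genes in another way. The peaks with the highest values were those of EIF2AK4 in METTL16 replicate 2 (12.4) and EIF2AK3 in eIF3b replicate 2 (11). Their deposited log10 p-values were -13.2 and -4.18, and the EIF2AK3 peak was absent from the partner replicate. In eIF3a replicate 2 no peak of the 10 genes was above 2.82. DDIT3, PPP1R15B and the canonical ATF4 peaks stayed at 2.41 or below in every list, under the median of all peaks of each list.

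**Figure D5:**
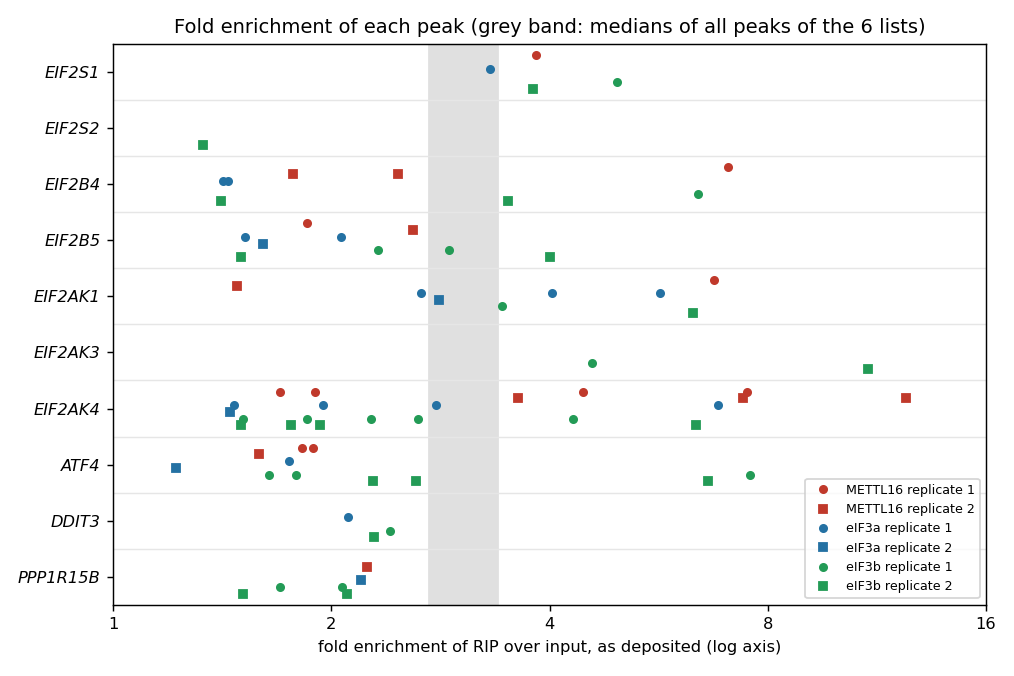
Fold enrichment of RIP over input (log axis, as deposited) for each of the 73 peaks, by gene, with colour for the protein and circles and squares for replicates 1 and 2. The grey band spans the medians of all peaks in the 6 lists, 2.73 to 3.40. All peaks of DDIT3 and PPP1R15B lie to its left, and those of EIF2AK3 to its right.

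Other genes of the pathway were counted from a list of 35. Of these 32 had a peak, and 24 were bound by eIF3b, 18 by METTL16 and 14 by eIF3a. The shares were 60.1%, 42.6% and 42.5% of all genes with a peak in any list, so the 32 are the like set for them. The subgroups below are small, and their counts are given as a description. Among 7 further genes for eIF2 and eIF2B subunits and for regulators, 4 were bound by eIF3b, 3 by METTL16 and 2 by eIF3a. Those of eIF3b were EIF2S3, EIF2B2, EIF5 and EIF2A. METTL16 bound EIF2S3, EIF2A and EIF2D, and eIF3a bound EIF2S3 and EIF2A. Among these 7 further genes, EIF2S3 was thus the only subunit gene bound by METTL16 or eIF3a. EIF2S3, the gamma subunit of eIF2, was in all 6 lists with an exon share of 5.88% to 36.7%, more than EIF2S1 or EIF2S2 in each list. Among 6 further kinases and regulators, 5 were bound by eIF3a, 4 by eIF3b and 1 by METTL16, the last being GCN1, the activator of GCN2, at 8.74% to 31.8%. Of 4 phosphatase genes, all were bound by METTL16 and by eIF3b, and 2 by eIF3a. PPP1R15A encodes the stress-induced counterpart of CReP. Its exon share was 27.8% and 26.9% in METTL16, 44.3% and 0 in eIF3a, and 53.9% and 30.4% in eIF3b. This was above that of PPP1R15B in all lists but eIF3a replicate 2. Among 7 stress transcription factors, 5 were bound by eIF3b, 4 by METTL16 and 2 by eIF3a, and NFE2L2 had no peak. CEBPB, a partner of CHOP, had 50.1% to 61.5% of its exon bases under peaks in 5 lists and 6.53% in eIF3a replicate 2. Among 11 targets of ATF4 and CHOP, 7 were bound by eIF3b, 6 by METTL16 and 3 by eIF3a, and CHAC1 and VLDLR had no peak.

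The gene whose exon share over the 6 lists was nearest to each of the 7 genes present in at least 4 lists was found by Euclidean distance, among genes with a peak in the same lists. For ATF4 it was CX3CL1, at 4.77 percentage points among 2717 genes. For EIF2AK1 it was NUDT16 (5.35), for EIF2AK4 SLC43A2 (1.68) and for EIF2B5 WIPI2 (2.42), among 2717 genes in each case. EIF2B4 was nearest to RAB42 (1.57, among 1002 genes), EIF2S1 to GTF2IRD2B (0.418, among 254) and PPP1R15B to KIF13A (2.76, among 33). Distances from sets of such unlike size cannot be compared. None of these nearest genes was among the 10 or on the pathway list.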

How the data were processed

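RIP-seq peaks were measured in 6 HepG2 RIP samples. Per the study's methods and notes, the authors aligned reads with STAR (GRCh38) and ran exomePeak with its default settings on RIP and input. Versions, gene annotation, input pairing and use of strand are not given in the sources used here. For each peak the authors deposited exon blocks, a gene name, a p-value, both raw and adjusted p as log10 (a score), and the fold enrichment over input (a ratio). Such values served for description and for filters inside single lists, since no counts give the depth, and no interval was computed.

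Block edges fitted exon edges when read as counted from 0 (78.3% of 189916 inner edges, against 0.0927% otherwise), and positions were written counted from 1. Gene structures were those of GENCODE release 44. Of 10830 names, 10325 matched a current symbol, 443 an older one through RefSeq and 62 none. Sequences were read from the GRCh38 genome and written on the strand of the transcript. An exon share is the percentage of the bases of all annotated exons of a gene that lie under peaks in a list. Upstream frames were read from each ATG of the 5′ UTR to its first stop codon. Replicates were compared by overlap and by the exact two-sided permutation test, with Benjamini-Hochberg adjustment over all 10760 genes. The code was tested on simulated peaks. All 10 genes are named, with the nearest gene of each present in at least 4 lists, and pathway genes are given by count with a few named after their values were seen. The genes, the lists and the tests were chosen with earlier results of these data known. Alternatives were a minimum fold enrichment of 4, the top 5000 peaks by p-value in each list, calls from either replicate, any coding transcript, an overlap of at least 30 bases, each replicate left out, and the replicate number as a block. Python 3.11.15, numpy 2.4.6 and pandas 2.3.3 were used.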

Additional observations from a re-analysis of the deposited data

How the results depend on the processing

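Of 82 alternative values for 12 results, 51 stayed within the spread or within 1.5 times the count, and 31 moved. These results are counts or shares without a direction, so a reversal could not show in them. With a fold enrichment of at least 4, bound genes fell from 5 to 1 in METTL16, from 4 to 0 in eIF3a and from 9 to 3 in eIF3b. The coding share then went from 60.0% to 28.5% in METTL16 and from 55.3% to 24.6% in eIF3b, the 5′ UTR count of eIF3b from 2 to 0, and the separated genes to 1, 3 and 3 for METTL16 against eIF3a, METTL16 against eIF3b and eIF3a against eIF3b. With the 5000 peaks of smallest p-value, bound genes were 3, 1 and 5 in METTL16, eIF3a and eIF3b, the 5′ UTR count was 0 in METTL16 and in eIF3b, the coding share of eIF3a was 15.8%, and 3 and 4 genes separated from eIF3b for METTL16 and eIF3a. A peak in either replicate gave 8 bound genes in eIF3a and 5′ UTR counts of 2, 1 and 4 in METTL16, eIF3a and eIF3b. Any coding transcript gave a METTL16 5′ UTR count of 2 and an eIF3b count of 3, the latter within 1.5 times the main count. An overlap of at least 30 bases gave an eIF3b count of 1. The causes were not tested, except that stricter lists hold fewer peaks by construction.

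When each replicate was left out in turn, bound genes in eIF3a ran from 5 to 7, with 7 without replicate 2. The 5′ UTR count ran from 1 to 2 in METTL16 (2 without replicate 2), from 0 to 1 in eIF3a (1 without replicate 2) and from 2 to 4 in eIF3b (4 without replicate 1). The separated genes of METTL16 against eIF3a, counted in both directions together, ran from 3 to 6. They were 4 without METTL16 replicate 1, 4 without eIF3a replicate 1 and 6 without eIF3a replicate 2. Without eIF3a replicate 2, METTL16 was above eIF3a in EIF2B4 and EIF2AK4 but below it in EIF2S1, EIF2B5, EIF2AK1 and DDIT3. Without METTL16 replicate 1, EIF2AK1 was below eIF3a (1.11% against 20.8% and 9.83%), and EIF2B4, EIF2AK4 and PPP1R15B were above it.

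Whether samples of the same replicate number were prepared together is not known. The correlation of the deviations of replicate 1 was -0.0610, -0.162 and 0.0179 for METTL16 with eIF3a, METTL16 with eIF3b and eIF3a with eIF3b. With 2 lists per protein these values cannot settle it. The replicate block asked for the same direction in both numbered pairs. With it the counts were 4, 6 and 8, against 2, 6 and 8 without it. For METTL16 against eIF3a it added ATF4, above in both pairs, and EIF2AK1, below in both. The crossed pairing of METTL16 with eIF3b, added after the data were seen, gave 8. On the canonical transcript alone, also added later, the counts were 2, 5 and 8, with ATF4 the gene lost. The unknown depth limits all statements on absent peaks.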
